A study of Mus musculus with 9 samples.

Results

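The genes described here are 10 that build, remodel and break down plasma lipoproteins: Mttp, Apob, Apoa1, Apoa4, Apoa5, Apoc3, Apoe, Lcat, Lipc and Lpl. They were chosen by symbol, and each matched 1 of the 30519 transcripts listed, 1 per gene. All 10 passed the filter on low values (average of 1 or more across the 9 livers), as did 10950 transcripts in all. RNA came from livers of mice aged 6 weeks: 4 miR-122 KO animals (1 female and 3 males) and 5 floxed littermates, labelled WT (3 females and 2 males). No label names the driver or the cells in which the floxed allele was removed. The targeted microRNA was not analysed here, and genotype was taken from the labels alone. Values are normalised abundances per transcript, which allow levels of the listed transcripts, though not of whole genes, to be set side by side.

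Lipoproteins carry triglyceride and cholesterol through the blood. In hepatocytes the microsomal transfer protein loads lipid onto apolipoprotein B to form very-low-density particles, while apolipoprotein A-I, lipidated outside the cell, becomes high-density lipoprotein (HDL) and activates LCAT, which esterifies its cholesterol. Lipoprotein lipase, bound to capillary walls, hydrolyses the triglyceride of circulating particles; hepatic lipase acts on remnants and HDL, and apolipoprotein E directs remnants to liver receptors.

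In KO livers Lcat, Mttp, Apoa1 and Lipc were lower, Apoa4 and Lpl were higher, and Apob, Apoc3, Apoa5 and Apoe were not called. Lcat was 2.07-fold lower by its means and Lpl 2.24-fold higher, the widest differences downward and upward among the 10. That makes 6 of 10 called (limma, Benjamini-Hochberg adjusted p under 0.05 over all transcripts), 2 higher and 4 lower. Of all transcripts tested, 35.9% were called, 21.4% higher and 14.5% lower. The median log2 fold change (KO minus WT) of the 10 was -0.14, against 0.03 over all transcripts tested. The values of the KO and WT livers did not overlap for 5 of the 10 genes, a pattern seen in 31.1% of all transcripts tested.

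The scale of the libraries bears on these directions. The deposited values sum to less in every KO library (710702 to 869117) than in any WT library (873227 to 1166628). With every library scaled to an equal total, the median of all transcripts tested moved to 0.37 and that of the 10 genes to 0.26. Lcat, Apoa4 and Lpl kept their calls there, Mttp, Apoa1 and Lipc lost theirs, and Apob and Apoc3 were called higher. That is 5 of 10 called, against 48.1% of all transcripts on that scale, with 4 higher (45.4% of all transcripts) and 1 lower (2.72%). Measured from the median of all transcripts, Mttp stood at -0.67 on the deposited scale and at -0.62 with equal totals, Apoa1 at -0.48 and -0.42, and Lipc at -0.45 and -0.39. Measured in the same way, Apob and Apoc3 stood at 0.06 and 0.07 with equal totals. A second rescaling divided each library by its median ratio to the average library. There the same genes were called as on the deposited scale, 2 higher and 4 lower, and 1918 and 2180 of all transcripts. Mttp was at -0.73 (limma adjusted p = 0.00103), Apoa1 at -0.54 (0.00498) and Lipc at -0.51 (0.0179) with that scaling.

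The labelled tissue was checked against hepatocyte genes. The 7 hepatocyte markers in the table summed to 50226 to 67171 in KO livers, against 46175 to 107902 in WT livers. Most of this sum was albumin (Alb), at 37940 to 54092 in KO livers, against 29487 to 90015 in WT livers. Of these 7 genes 1, fibrinogen beta (Fgb), was called lower, against 14.5% of all transcripts tested. With equal totals 1 of the 7 was higher and 0 lower, against 45.4% and 2.72% of all transcripts. For WT replicate 3 the label says female and the column name says male. Its Ddx3y level, a Y-linked gene, was 0.0422, against 13.2 or above in every male library, and the label was kept.

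**Figure D1:**
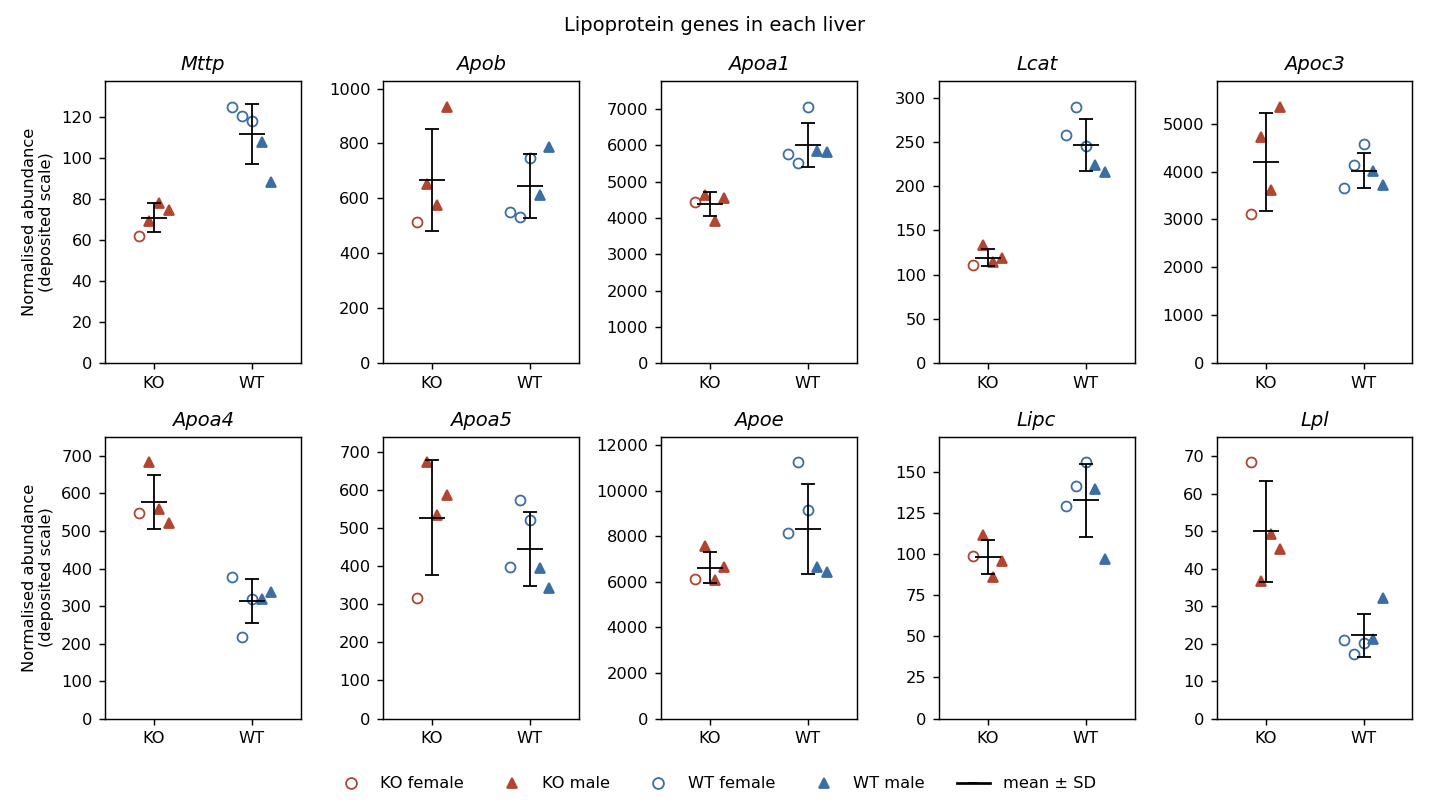
Normalised abundance (deposited scale) of each of the 10 genes in 4 KO livers (left in each panel) and 5 WT livers (right). Points are animals (open circles, females; triangles, males) and bars are mean ± SD. KO and WT points do not overlap for Mttp, Apoa1, Lcat, Apoa4 and Lpl. The differences of Mttp and Apoa1 were not called with equal totals.

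Sequence around the start of the gene was taken from RefSeq on GRCm38.p6, the assembly that mm10 names, as 250 bases before and 50 after each annotated start. Windows were found for 8 of the 10 genes. Windows for 3 genes are shown, as that of the gene with the smallest adjusted p (Lcat), that of the called gene whose window holds a searched motif (Lipc) and that of a gene with a call in the opposite direction (Apoa4). The Lcat window is chr8:105943353-105943652, minus strand. The Lipc window is chr9:70934759-70935058, minus strand, and the Apoa4 window is chr9:46240594-46240893, plus strand. Sequences run 5′ to 3′, with matches to the motifs below in capitals.
Lcat: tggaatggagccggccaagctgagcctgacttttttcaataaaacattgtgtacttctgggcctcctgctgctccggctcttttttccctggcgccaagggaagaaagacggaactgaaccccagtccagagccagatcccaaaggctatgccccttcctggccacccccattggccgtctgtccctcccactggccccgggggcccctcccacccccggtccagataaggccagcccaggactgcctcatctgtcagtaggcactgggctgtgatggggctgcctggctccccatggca
Lipc: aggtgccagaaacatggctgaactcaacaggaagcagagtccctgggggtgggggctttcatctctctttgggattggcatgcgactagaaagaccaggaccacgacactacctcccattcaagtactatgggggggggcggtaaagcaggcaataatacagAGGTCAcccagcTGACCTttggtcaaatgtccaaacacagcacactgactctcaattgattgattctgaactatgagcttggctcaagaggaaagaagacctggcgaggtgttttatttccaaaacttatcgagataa
Apoa4: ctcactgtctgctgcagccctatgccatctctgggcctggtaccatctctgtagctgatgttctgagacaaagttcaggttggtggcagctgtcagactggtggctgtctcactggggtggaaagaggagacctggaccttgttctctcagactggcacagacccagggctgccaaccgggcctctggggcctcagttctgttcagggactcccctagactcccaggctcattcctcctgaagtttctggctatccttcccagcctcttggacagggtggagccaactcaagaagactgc

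These windows were searched on both strands for 3 motifs. The first, AGGTCA, is a nuclear receptor element. The second, GTTAAT, is part of the HNF1 element. The third, TATAAA, is the core promoter box. These motifs do not overlap each other in the windows shown. In the Lipc window AGGTCA was found 2 times, at -88 on the strand shown and at -76 on the other, counted in bases from the annotated start. Of 32851 RefSeq windows of this length, 16.3% held AGGTCA, 7.10% held GTTAAT and 13.6% held TATAAA. The windows of Lcat, Apoa4, Apoa1, Mttp and Apoe held none of these letters, and TATAAA was found in those of Apob and Apoa5. The RefSeq start lay 0 bases from the start of the listed transcript for Lipc, 20.0 bases for Lcat and 148 bases for Apoa4. It lay 12041 bases away for Mttp, 34682 for Apob, 445 for Apoa5 and 136 for Apoe, so for these 4 genes the window does not hold the start of the transcript measured.

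Assembly of very-low-density particles was represented by Mttp, the lipid transfer protein, and by Apob, the protein that holds the particle together. Mttp (ENSMUST00000029805, chr3:138089854-138131377, minus strand) had 62.1, 69.1, 78.3 and 74.5 in KO livers, against 125, 120.4, 118, 108 and 88.4 in WT livers. All KO values lay below all WT values, with the smallest gap to WT replicate 5, a male. The mean was 71.0 ± 7.05 in KO and 112 ± 14.6 in WT livers (SD, n = 4 and 5), a log2 fold change of -0.64 ± 0.12 (SE, limma adjusted p = 0.00217). In a bulk liver sample fewer cells of a type and less RNA per cell cannot be told apart.

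Apob was measured through a short transcript. The transcript listed is Apob-203 (ENSMUST00000171239, chr12:8012359-8016835, plus strand), which has 2174 bases and 5 exons, all inside exons of the longest coding transcript of 13934 bases and 29 exons. Its level was 514, 652, 574 and 934 in KO livers, against 551, 531, 748, 613 and 789 in WT livers. The ranges overlapped, with KO replicate 4 above every WT liver and KO replicate 1 below every one. The mean was 669 ± 186 in KO and 646 ± 116 in WT livers (n = 4 and 5), and the log2 fold change was 0.03 with a 95% interval of -0.40 to 0.46 (limma adjusted p = 0.919). These values are those of a short transcript and not of the whole gene.

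HDL formation was represented by Apoa1, its main structural protein, and by Lcat. Lcat (ENSMUST00000038896, chr8:105939551-105943382, minus strand) had 111, 133, 114 and 118 in KO livers, against 258, 289.8, 245, 224 and 216 in WT livers. The highest KO value was well under the lowest WT value, and the spread within each genotype was narrow. The mean was 119 ± 9.68 in KO and 247 ± 29.3 in WT livers (n = 4 and 5), a log2 fold change of -1.04 ± 0.10 (SE, limma adjusted p = 6.77e-05). The call held under all 19 alternatives tried, including equal totals (-0.64) and males alone (-0.85).

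Apoa1 (ENSMUST00000034588, chr9:46228580-46230466, plus strand) had 4429, 4624, 3907 and 4552 in KO livers, against 5766, 5513, 7068, 5835 and 5829 in WT livers. KO and WT did not overlap, and WT replicate 3 stood above the other WT livers. The log2 fold change was -0.45 ± 0.11 (SE, limma adjusted p = 0.0107), and it was -0.05 with equal totals. In the authors' deposited table the q of Apoa1 was 0.108, whereas Mttp, Lcat, Lipc, Apoa4 and Lpl all had a q under 0.05, which makes 2 of the 10 higher and 3 lower. Of all transcripts with a q there, 25.2% were under 0.05, 13.6% higher and 11.6% lower.

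Apoa1, Apoc3, Apoa4 and Apoa5 lie next to each other within 43.3 kb of chromosome 9. On the deposited scale Apoa4 was called higher, Apoa1 lower and Apoc3 and Apoa5 neither, and with equal totals Apoa1 was not called. Apoa4, an apolipoprotein of triglyceride-rich particles and HDL, had 549, 683, 557 and 521 in KO livers, against 377, 219, 319.6, 319 and 336 in WT livers (ENSMUST00000034585, chr9:46240696-46243459, plus strand). Every KO value exceeded every WT value. Its mean was 578 ± 72.1 in KO and 314 ± 58.2 in WT livers (n = 4 and 5), a log2 fold change of 0.89 ± 0.16 (SE, limma adjusted p = 0.00188). The start of Apoa4 lies 12.1 kb from that of Apoa1, which was lower on the deposited scale.

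Apoc3, an inhibitor of triglyceride clearance, sits between them on the opposite strand (ENSMUST00000034586, chr9:46233051-46235299). It had 3112, 4716, 3607 and 5354 in KO livers, against 3649.8, 4134, 4584, 4005 and 3727 in WT livers. KO livers spread on both sides of the WT range, with an SD of 1022 in KO and 372 in WT. The log2 fold change was 0.03 with a 95% interval of -0.34 to 0.41 (limma adjusted p = 0.891).

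Apoa5, which promotes lipolysis by lipoprotein lipase, lies 40.1 kb from Apoa1 (ENSMUST00000034584, chr9:46269078-46271919, plus strand). It had 316, 672, 533 and 587 in KO livers, against 397, 574, 520.3, 395 and 342 in WT livers. The lowest of all 9 values was that of the KO female, while the KO males lay at 533 or above. The log2 fold change was 0.21 with a 95% interval of -0.30 to 0.73 (limma adjusted p = 0.502).

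**Figure D2:**
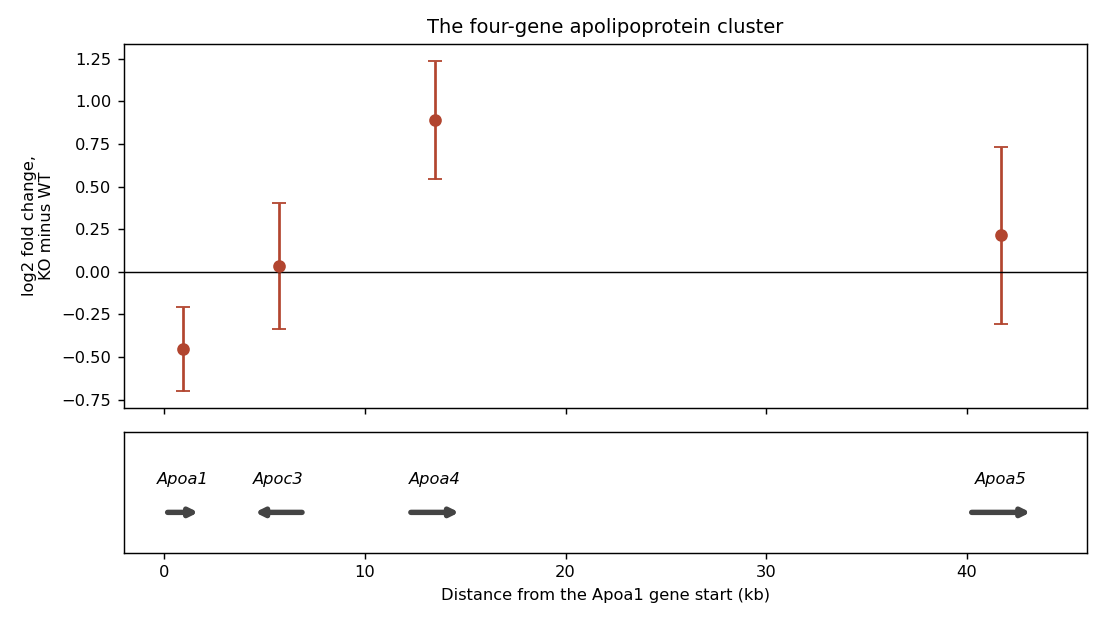
Upper panel, log2 fold change (KO minus WT, deposited scale) with 95% interval for the 4 genes of the apolipoprotein cluster on chromosome 9. Lower panel, gene bodies by distance from the Apoa1 start in kb, with arrows in the direction of transcription. The value was -0.45 for Apoa1, which was not called with equal totals, 0.03 for Apoc3, 0.89 for Apoa4 and 0.21 for Apoa5.

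Apoe, the ligand for remnant uptake, had the highest mean of the 10 genes in both genotypes. The transcript listed is Apoe-202 (ENSMUST00000167646, chr7:19696267-19699052, minus strand), annotated as a processed transcript of 728 bases and 1 of 11 transcripts of the gene. It had 6145, 7587, 6101 and 6655 in KO livers, against 8138, 11247, 9144, 6646 and 6442 in WT livers. The WT females were higher than every KO liver, and both WT males lay within the KO range. The log2 fold change was -0.30 with a 95% interval of -0.70 to 0.09 (limma adjusted p = 0.213), it was 0.10 with equal totals, and it was 0.046 among males alone.

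Hepatic lipase and lipoprotein lipase belong to the same lipase family. Lipc (ENSMUST00000034731, chr9:70798128-70934808, minus strand), whose start lies within the window printed above, had 99.0, 111, 85.9 and 96.0 in KO livers, against 129, 141, 156, 139.7 and 97.0 in WT livers. WT replicate 5 lay inside the KO range and the other 4 WT livers lay above it. The log2 fold change was -0.42 ± 0.14 (SE, limma adjusted p = 0.0381). This call was lost without KO replicate 1, 3 or 4 or without WT replicate 1, 2, 3 or 4 (adjusted p 0.0637 to 0.106), in a fit with a term for sex (0.0808), among males alone (0.380) and with equal totals (0.918).

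Lpl (ENSMUST00000015712, chr8:68880491-68906934, plus strand) had 68.5, 36.9, 49.2 and 45.3 in KO livers, against 21.04, 17.1, 20.1, 21.2 and 32.1 in WT livers. The KO female was highest, WT replicate 5 stood above the other WT livers, and the genotypes did not overlap. The mean was 49.96 ± 13.4 in KO and 22.3 ± 5.73 in WT livers (n = 4 and 5), a log2 fold change of 1.12 ± 0.20 (SE, limma adjusted p = 0.00227). Among the 3 KO and 2 WT males it was 0.71 (adjusted p = 0.0621).

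Lpl is made mostly in muscle, fat and macrophages, and Apoe is also made by macrophages, so markers of other cells were measured in the same libraries. Of 14 Kupffer cell and macrophage markers 13 were tested and all 13 were higher in KO, and their sum was 665 to 774 in KO livers, against 329 to 429 in WT livers. Of 8 stellate cell and fibroblast markers 7 were higher, and their sum was 280.4 to 330.0 in KO livers, against 123 to 224 in WT livers. Of 8 cholangiocyte markers 6 were tested and 5 were higher, and their sum was 571 to 945 in KO livers, against 37.1 to 62.4 in WT livers, most of it Spp1 (547 to 918 in KO livers, against 31.3 to 57.3 in WT livers). Of 8 endothelial markers 1 was higher and 1 lower. These counts stand against 21.4% of all transcripts called higher and 14.5% lower. With equal totals 13 macrophage, 8 stellate and fibroblast, 5 cholangiocyte and 1 endothelial markers were higher and 0 lower, against 45.4% and 2.72%. The part of these cells in the Lpl and Apoe values was not tested.

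Most markers of fat and muscle were near 0. Adiponectin (Adipoq) averaged 0.414 ± 0.310 in KO and 0.293 ± 0.566 in WT livers, and Lep, at 0 in every WT liver and in 3 KO livers, averaged 0.00486 in KO. The summed level of the 6 adipocyte markers was 15.5 to 27.5 in KO livers, against 15.8 to 37.2 in WT livers, most of it Fabp4. Cfd averaged 1.88 ± 1.35 in KO and 0.930 ± 1.83 in WT livers (limma adjusted p = 0.314). Adipoq and Cfd were highest in WT replicate 1 (1.30 and 4.19), as were the muscle markers Acta1, Ckm and Mb. The 5 heart and skeletal muscle markers summed to 0.0684 to 1.31 in KO livers, against 0.0209 to 5.39 in WT livers. Of the 5 intestinal markers, measured because the intestine also makes Apob and Apoa4, Cdx2 and Lct were at 0 in every library, Muc2 was at 0 in every KO library, Vil1 was higher and Fabp2 lower. The summed level of this list was 61.9 to 87.4 in KO livers, against 93.4 to 124 in WT livers. Most of it was Fabp2 (46.7 to 72.2 in KO livers, against 92.8 to 123 in WT livers). Vil1, which went the other way, averaged 15.3 ± 0.527 in KO and 0.353 ± 0.176 in WT livers (limma adjusted p = 9.12e-08).

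The order of the levels changed little between the genotypes. In KO livers the means ran Apoe, Apoa1, Apoc3, Apob, Apoa4, Apoa5, Lcat, Lipc, Mttp and Lpl, a range of 6622 to 49.96. In WT livers the order was the same except that Apoa5 stood above Apoa4, with a range of 8324 to 22.3. Neighbours whose ranges overlapped in KO were Apoa1 and Apoc3, Apob and Apoa4, Apoa4 and Apoa5, Lcat and Lipc, and Mttp and Lpl. In WT they were Apoe and Apoa1, Apob and Apoa5, Apoa5 and Apoa4, Apoa4 and Lcat, and Lipc and Mttp. Lcat and Lipc overlapped in KO and not in WT, though within a library Lcat was above Lipc in all 4 KO and all 5 WT livers. The 10 transcripts together made up 2.26% ± 0.186 of the listed abundance in KO and 2.03% ± 0.377 in WT livers (SD, n = 4 and 5), with overlapping ranges of 2.14% to 2.54% and 1.53% to 2.46%.

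**Figure D3:**
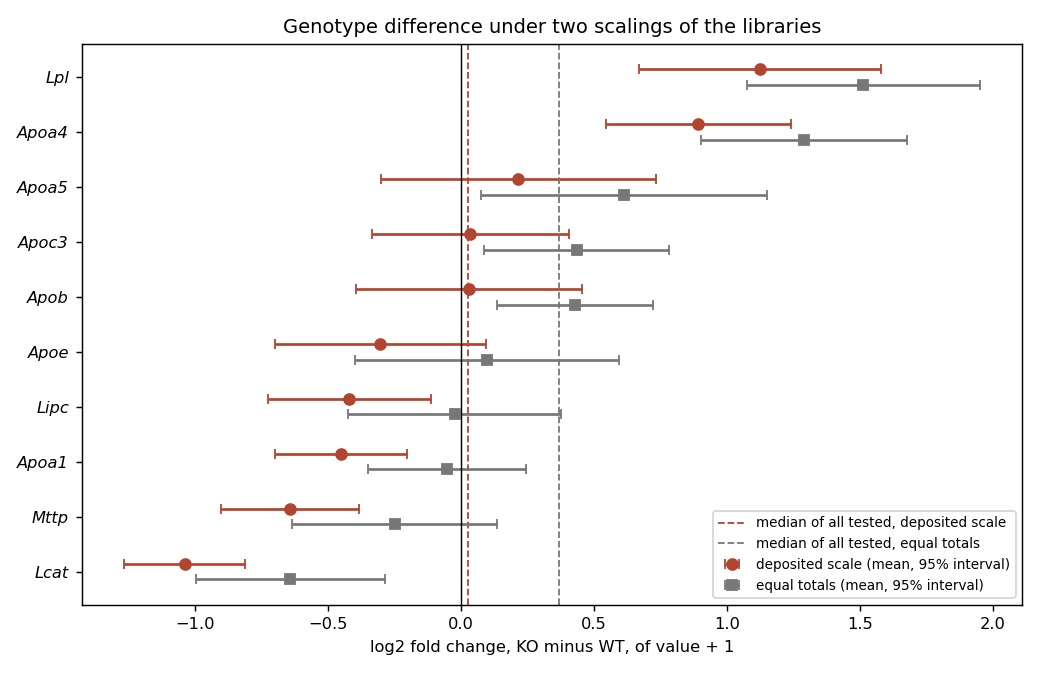
Log2 fold change (KO minus WT, of value + 1) with 95% interval for each gene on the deposited scale (circles) and with every library scaled to an equal total (squares). Dashed lines are the medians of all tested transcripts, 0.03 and 0.37. Apoe changes sign between the scales and was called on neither, and Lcat, Apoa4 and Lpl were called on both.

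Ratios between genes of the same library do not depend on how libraries are scaled, and 5 pairs were compared with an exact two-sided permutation test over the 9 livers, adjusted over the 5 ratios. The smallest p this test allows is 0.00794. The pairs were chosen by function with earlier results of these data known. The ratio of Lcat to Apoa1, enzyme to activator, was 0.0251, 0.0287, 0.0292 and 0.0260 in KO livers, against 0.0447, 0.0526, 0.0347, 0.0384 and 0.0371 in WT livers. All KO ratios were below all WT ratios, a log2 difference of -0.59 (exact permutation p = 0.00794, adjusted 0.0198).

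The ratio of Apoa4 to Apoa1 was 0.124, 0.148, 0.143 and 0.114 in KO livers, against 0.0653, 0.0396, 0.0452, 0.0546 and 0.0577 in WT livers. It was higher in every KO liver, with a log2 difference of 1.35 (exact permutation p = 0.00794, adjusted 0.0198). Every KO liver was already above every WT liver for Apoa4 and below every one for Apoa1, so this ratio had to separate. Its p therefore adds no separate evidence to the results of these genes. The ratio of Lpl to Lipc was 0.691, 0.331, 0.573 and 0.472 in KO livers, against 0.163, 0.121, 0.129, 0.152 and 0.331 in WT livers. WT replicate 5 reached the level of KO replicate 2, and the other WT livers lay below every KO liver. The log2 difference was 1.58 (exact permutation p = 0.0238, adjusted 0.0397), and p was 0.0571 without WT replicate 1, 2, 3 or 4.

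The ratio of Mttp to the short Apob transcript was 0.121, 0.106, 0.136 and 0.0798 in KO livers, against 0.227, 0.227, 0.158, 0.176 and 0.112 in WT livers. KO replicates 1 and 3 lay above WT replicate 5. The log2 difference was -0.68 (exact permutation p = 0.0397, adjusted 0.0496), and p was 0.0714 to 0.107 without any 1 of the KO livers or of WT replicates 1 to 4. The ratio of Apoa5 to Apoc3 averaged 0.125 ± 0.0231 in KO and 0.110 ± 0.0181 in WT livers (n = 4 and 5), a log2 difference of 0.18 (exact permutation p = 0.278, adjusted 0.278).

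**Figure D4:**
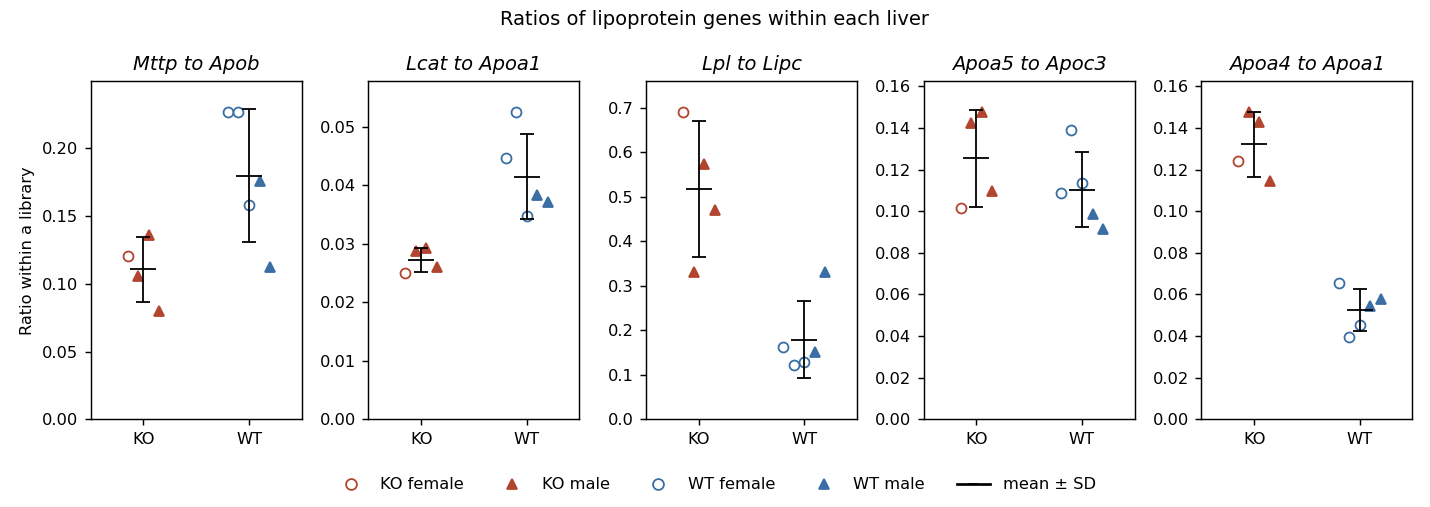
Ratio of the normalised abundances of 2 genes within each library for 5 pairs, in 4 KO livers (left in each panel) and 5 WT livers (right). Points are animals (open circles, females; triangles, males) and bars are mean ± SD. The ratios of Lcat to Apoa1 and of Apoa4 to Apoa1 do not overlap between the genotypes, whatever the scaling of the libraries.

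The sexes are unevenly divided between the genotypes, and a difference by sex within WT was not tested. Mttp averaged 121 in WT females and 98.1 in WT males, and Lcat 264 and 219.9, with all 3 WT females above both WT males for each gene. Lpl averaged 19.4 in WT females and 26.7 in WT males, where WT replicate 4 (21.2) lay close to the highest WT female (21.04). Among males alone, where 21.2% of all transcripts were called (13.5% higher and 7.65% lower) and 2 of the 10 genes were higher and 1 lower, Apoa4 (log2 fold change 0.83, limma adjusted p = 0.0171) and Lcat (-0.85, 0.00715) kept their calls. Apoa5 was called higher there (0.69, 0.0269), and Mttp (-0.40, 0.0797), Apoa1 (-0.42, 0.120), Lipc and Lpl were not called. With sex as a covariate over all 9 livers, Mttp (-0.61, 0.00599), Apoa1, Lcat, Apoa4 and Lpl kept their calls. The test of a genotype effect that differs by sex rests on 1 KO female, and none of the 10 genes passed it.

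Other genes of lipoprotein metabolism were grouped in 6 lists by their textbook roles, and a value in parentheses after a pair of means is the limma adjusted p. The counts below stand against 21.4% of all transcripts called higher and 14.5% lower, and with equal totals against 45.4% and 2.72%. The medians below stand against 0.03 over all transcripts tested, and with equal totals against 0.37. Among 10 further apolipoproteins 9 were tested, 1 was higher and 4 were lower in KO. Apoc2, the cofactor that lipoprotein lipase needs, rose to 680 ± 49.1 in KO, against 397 ± 60.7 in WT livers (log2 fold change 0.79, limma adjusted p = 0.00104). Apof, a regulator of lipid exchange between particles, was 310.0 ± 19.2 in KO and 449 ± 25.0 in WT livers (0.000695). Apon was 154 ± 21.6 in KO and 261 ± 48.4 in WT livers (0.00289). Apoh was 1425 ± 159 in KO and 2035 ± 347 in WT livers (0.0221). The last of the 4, Apoa2, a major HDL protein named after its values were seen, was 6334 ± 1121 in KO and 9069 ± 1348 in WT livers (0.0316). With equal totals Apof and Apoh were not called (adjusted p of 0.329 and 0.654 by limma). Of the 4, only Apon was still called lower there (log2 fold change -0.36, limma adjusted p = 0.0226), so the lower call of Apoa2 was lost too. The median log2 fold change of the list was -0.50, and -0.10 with equal totals, where 2 were higher and 1 lower.

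Of 19 genes of assembly and secretion 2 were higher, 4 lower and 13 not called, with a median of -0.10. With equal totals 7 were higher and 0 lower, so none of these 4 lower calls held, and the median was 0.28. Apobec1, the enzyme that edits the Apob transcript, rose to 15.5 ± 1.83 in KO, against 6.72 ± 1.56 in WT livers (limma adjusted p = 0.000543). Sort1, a sorting receptor that binds apolipoprotein B, rose to 6.17 ± 0.886 in KO, against 2.73 ± 1.03 in WT livers (0.00606). Sar1b, the coat GTPase of large secretory carriers, was 214 ± 19.9 in KO and 309 ± 18.9 in WT livers (0.00135), a difference not called with equal totals (0.312). Sec23a and Ces1d were also lower on the deposited scale (0.0123 and 0.0272), and with equal totals neither was called and the log2 fold change of Sec23a was 0.13. The fourth, Smlr1, named after its values were seen, was lower at 59.1 ± 4.59 in KO and 79.7 ± 14.5 in WT livers (0.0393). The disulfide isomerase P4hb, the partner subunit of Mttp, was 376 ± 30.8 in KO and 388 ± 25.3 in WT livers (0.683) and was named after its values were seen.

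Of 11 lipase cofactors, inhibitors and other lipases 10 were tested, 2 were higher, 2 lower and 6 not called, with a median of -0.02. With equal totals 3 were higher and 0 lower, and the median was 0.35. Sel1l, needed for folding and release of lipoprotein lipase, was 11.4 ± 3.79 in KO and 20.3 ± 2.56 in WT livers (0.00798), and was not called with equal totals (0.115). Pltp, the phospholipid transfer protein, was 14.9 ± 1.23 in KO and 10.2 ± 2.89 in WT livers (0.0442), and Lmf2 was 6.68 ± 0.451 in KO and 5.38 ± 0.436 in WT livers (0.0251). Gpihbp1, which anchors lipoprotein lipase to capillaries, was 13.8 ± 1.31 in KO and 12.9 ± 1.08 in WT livers (0.462). It was called higher with equal totals (log2 fold change 0.46, limma adjusted p = 0.0225). Lmf1, which matures lipases, was 11.02 ± 2.01 in KO and 11.4 ± 0.896 in WT livers (0.718).

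Of 14 receptors and receptor regulators 11 were tested, 3 were higher, 2 lower and 6 not called, with a median of 0.11. With equal totals 6 were higher and 0 lower, and the median was 0.50. Lsr, the lipolysis-stimulated receptor for remnants, rose to 73.3 ± 4.25 in KO, against 38.4 ± 6.28 in WT livers (limma adjusted p = 0.000253). The heparan sulfate carrier Sdc1 was 60.9 ± 9.64 in KO and 39.2 ± 9.46 in WT livers (0.0189). Stab1, listed through a transcript of 1236 bases annotated as a retained intron, was higher (0.0372), although its q in the authors' deposited table was 0.0885. Asgr1 was lower (0.0451) on the deposited scale, with a log2 fold change of 0.055 with equal totals.

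In the list of HDL formation and cholesterol efflux 1 of 8 was higher, 1 lower and 6 not called, with a median of -0.07. With equal totals 2 were higher and 0 lower, and the median was 0.32. The exporter Abcg1 was 1.96 ± 0.149 in KO and 1.34 ± 0.256 in WT livers (limma adjusted p = 0.0334). Abca1, which lipidates apolipoprotein A-I, was 14.7 ± 1.81 in KO and 19.0 ± 2.35 in WT livers (0.0386), with a log2 fold change of 0.030 with equal totals. Of 20 transcriptional regulators 18 were tested, 1 was higher, 2 lower and 15 not called, with a median of -0.07. With equal totals 6 were higher and 0 lower, and the median was 0.26. The oxysterol receptor gene Nr1h2 was 9.35 ± 1.24 in KO and 4.50 ± 1.53 in WT livers (0.00646), although its q in the authors' deposited table was 0.459. The sugar-responsive factor gene Mlxipl was 17.3 ± 2.63 in KO and 23.6 ± 2.43 in WT livers (0.0142), and the bile acid receptor gene Nr1h4 was 36.5 ± 3.39 in KO and 55.9 ± 12.4 in WT livers (0.0228). Neither of these was called with equal totals (0.782 and 0.506).

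**Figure D5:**
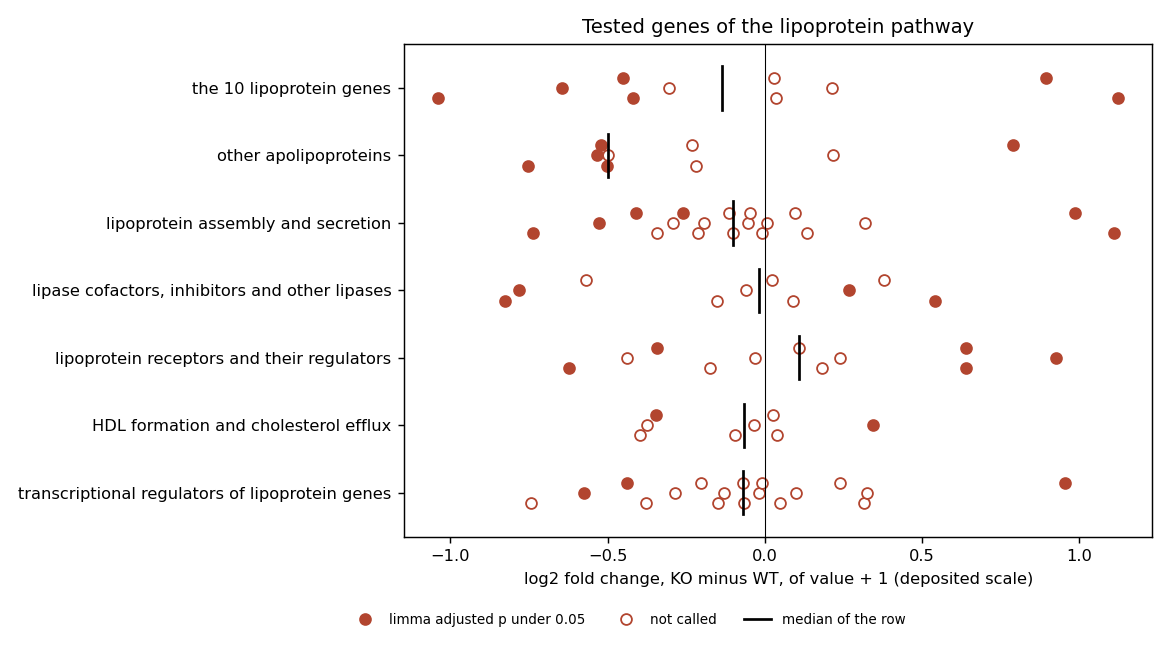
Log2 fold change (KO minus WT, deposited scale) of each tested gene in 7 groups, with filled points for genes called by limma and a line at the median of each group. The medians lie between -0.50 and 0.11, against 0.03 over all transcripts tested. With equal totals the median of all transcripts tested was 0.37, and only that of the receptors and their regulators (0.50) lay above it.

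For the genes with the smallest adjusted p among the 10, Lcat and Apoa4, the transcripts with the most similar profiles were found among 10198 compared, by the root mean square difference over the 9 libraries in log2(value + 1) minus the WT mean, a scale that shrinks the changes of low transcripts such as Klhl7. Nearest to Lcat were Klhl7 (0.0950) and Timm8a1 (0.117). Nearest to Apoa4 were Ahr (0.123) and Actn1 (0.15). Klhl7 averaged 2.68 ± 0.207 in KO and 7.14 ± 0.855 in WT livers, and Ahr averaged 14.8 ± 1.71 in KO and 8.13 ± 1.27 in WT livers.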

How the data were processed

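Liver polyA RNA of 4 KO and 5 WT mice was sequenced. The submitters' processing notes name kallisto, sleuth and the build mm10, with versions, transcript set and filters not given in the sources used here. Deposited per-library columns were treated as a normalised signal per transcript: the authors' scaling is not given, and the values do not sum to a fixed total. The p-values, q-values and natural log coefficients deposited by the authors were used as an alternative; their coefficient is WT minus KO, so its sign was turned and it was put on a log2 scale.

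Columns were matched to samples by mouse identifier. Transcripts averaging 1 or more (10950) were tested with limma 3.58.1 in R 4.3.3 on log2(value + 1), with genotype alone in the model, a mean-variance trend and a Benjamini-Hochberg threshold of 0.05. This log scale understates changes of low transcripts; a fold is the ratio of group means. The step was tested on simulated data. Each animal is 1 replicate.

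The exponent of the authors' mean observation, on a natural log scale, was 1997 for Lpl and 75476 for Apoa1; that observation rose with transcript length at a slope of 1.02 after abundance was removed (9395 transcripts), as read counts do. Depth per library is not given. Annotation was GENCODE M21 (GRCm38); coordinates are 1-based.

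The genes and lists were chosen with earlier results of these data known. Named are all 10 genes, up to 3 called genes per list and direction with the smallest adjusted p, direct cofactors of the lipases, and nearest profiles; other names are marked. Angptl8 and the hepatocyte marker Tf were not analysed here. Some genes of the lists are counted but not reported here by name. Alternatives were other pseudocounts, filters, scalings, sex as a covariate, males alone, a replicate block, leaving out each library, and the submitters' test.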

Additional observations from a re-analysis of the deposited data

Results flagged for a closer look

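Among 30 groups of livers examined for 1 value far from the others (10 genes and 5 ratios in each genotype), 3 stood out by Dixon's test, and chance flags about 1 in 20. Apoa1 was 7068 in WT replicate 3, against 5513 to 5835 in the other WT livers. Lpl was 32.1 in WT replicate 5, a male, against 17.1 to 21.2 in the other WT livers. The ratio of Lpl to Lipc was 0.331 in that same liver, against 0.121 to 0.163 in the other WT livers.

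For Apoa5 the KO livers lay on opposite sides of the WT livers of their sex, with 1 KO female, and the test of a difference between the sexes did not pass. The KO female (316) lay below all 3 WT females (397 to 574), and all 3 KO males (533 to 672) lay above both WT males (395 and 342). The log2 difference between the male and the female effect was 1.33 (limma interaction adjusted p = 0.218, unadjusted p = 0.0018), and it rests on 1 KO female. The same difference was -1.06 for Lpl (adjusted p = 0.317 by limma) and 0.56 for Mttp (adjusted p = 0.342 by limma). Of 10950 transcripts, 13 passed this interaction test.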

How the results depend on the processing

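Lcat and Apoa4 kept their direction and call under all 19 alternatives, and Lpl under all but males alone. With equal totals 4 of the 10 genes were called higher and 1 lower, and 5030 and 301 of all transcripts. Among males alone 1 of the 10 was lower, and 1493 and 843 of all transcripts were higher and lower. Without a filter on low values 2 of the 10 were lower, Mttp (limma adjusted p = 0.00369) and Lcat (0.000148). The calls of Apoa1 (0.0792) and Lipc (0.0579) were lost there. With a mean of at least 5 there were 1231 higher transcripts. Replicate numbers did not pair the livers (correlation of deviations from the group mean 0.229, 0.0823, -0.184 and 0.113 for numbers 1 to 4). With the replicate block 3 of the 10 were lower and 2 higher, and the call of Apoa1 was lost (limma adjusted p = 0.0715). Without any 1 library 3 to 4 were lower and 2 were higher, and 1876 to 2438 of all transcripts were higher and 1238 to 1616 lower.

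Genes near no change reversed: Apob to -0.060 with median ratio scaling, -0.076 with sex as a covariate and -0.015 in the submitters' test (-0.14 to 0.14 without any 1 library), and Apoc3 to -0.055, -0.018 and -0.015 (-0.094 to 0.17). Apoe reversed to 0.10 with equal totals and 0.046 among males alone. With equal totals Lmf1 (0.31), Sec23a (0.13), Asgr1 (0.055) and Abca1 (0.030) reversed; Lmf1 ranged from -0.14 to 0.024 without any 1 library. The calls of Pltp, Stab1, Abcg1 and Asgr1 were lost under 10 or 11 of the 18 or 19 alternatives that gave a value, that of Abca1 under 9, and those of Lmf2 and Ces1d under 7. The cause was not tested.

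Among the 3 KO and 2 WT males the permutation test of a ratio cannot go below 0.1, and the log2 differences were -0.42 (Mttp to Apob), -0.43 (Lcat to Apoa1), 1.00 (Lpl to Lipc) and 1.26 (Apoa4 to Apoa1). Without any 1 library they were -0.84 to -0.53 for Mttp to Apob (p 0.0286 to 0.107) and 1.43 to 1.83 for Lpl to Lipc (p 0.0179 to 0.0571).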

Other observations

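Angptl4, a secreted inhibitor of lipoprotein lipase, was listed through a transcript annotated for nonsense-mediated decay. It stood at 32.4 in the KO female and 94.2, 67.6 and 69.0 in KO males, against 71.6, 60.2 and 68.0 in WT females and 41.3 and 18.8 in WT males. Over all livers it was not called (limma adjusted p = 0.513), and among males alone it was (log2 fold change 1.41, adjusted p = 0.0348).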
